A study of Homo sapiens with 14 samples.

Results

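The 10 genes described here encode the proteins that carry a calcium signal from its intracellular store to the nucleus: the inositol trisphosphate (IP3) receptors ITPR1, ITPR2 and ITPR3, the store sensors STIM1 and STIM2, the channel subunit ORAI1, the calcineurin catalytic subunit PPP3CA, and the transcription factors NFATC1, NFATC2 and NFATC3. They were chosen by symbol, as the rows whose gene identifier maps to these names in a GENCODE annotation of GRCh38, and they are 10 of the 58440 genes in the files. RNA sequencing was run on mixtures of 2 human cell lines, with 2 libraries at each of 7 compositions and 14 libraries in all. Pure HEK cells (100% HEK, 0% Jurkat) and pure Jurkat cells (0% HEK, 100% Jurkat) were compared with each other, and 5 mixtures with 80, 60, 50, 40 or 20% HEK cells lay between them, the rest being Jurkat cells. The study made these mixtures as samples of known composition for separating a mixture into its cell types.

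HEK-293T is an adherent line from human embryonic kidney that carries the SV40 large T antigen, and Jurkat is a leukemic T cell line that grows in suspension. Every mixture was made from 1000000 cells per milliliter suspensions, the labels name no stimulus for either line, and synthetic ERCC RNAs were added to each sample's mRNA after extraction. The labels call the libraries of a composition technical replicates, so every p-value here measures the spread between libraries and not between cultures. Total gene counts ran from 4468822 to 28303668 per library, and the pure Jurkat libraries were the shallowest. The summed level of 8 Jurkat markers was 2893 and 3276 CPM (gene counts scaled to a library total of 1000000) in pure Jurkat libraries against 19.6 and 15.7 CPM in pure HEK libraries, where 2 and 3 of the 8 lay at or under 3 counts. The summed level of 8 HEK markers was 257 and 275 CPM in pure HEK libraries against 44.9 and 36.7 in pure Jurkat libraries, where 5 of the 8 lay at or under 3 counts. The names of the deposited files fall into 2 groups, and both pure HEK libraries are in one and both pure Jurkat libraries in the other, so that among the pure libraries file group and cell line cannot be told apart.

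In T cells, receptor signals activate phospholipase C, which makes IP3. IP3 opens its receptors in the endoplasmic reticulum, the STIM proteins sense the emptied store and open ORAI channels in the plasma membrane, and the calcium that enters activates calcineurin through calmodulin. Calcineurin removes phosphates from NFAT proteins, which then enter the nucleus and switch on cytokine and other activation genes. Most of these proteins are also present outside the immune system, where they serve hormone, growth factor and muscle signals.

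Between the pure lines, 7 of the 10 genes were higher in Jurkat cells by CPM, PPP3CA was higher in HEK cells, and STIM2 and ITPR1 did not pass the test. Of all 15794 genes tested, 19.0% were called higher in Jurkat cells and 24.2% higher in HEK cells. NFATC2 had by far the widest gap, with a mean of 51.4 CPM in Jurkat and 0.641 CPM in HEK cells, and of the 7 it was the 1 that stayed lower in HEK cells when counts were set against the ERCC RNAs. PPP3CA, at 111 CPM in HEK and 27.4 CPM in Jurkat cells, was also higher in HEK cells on both scales. Across the mixtures NFATC2, STIM1 and ORAI1 were called as falling with the percentage of HEK cells, where 4.82% of all genes tested were. Of these members only NFATC2 was still called with the group of file names as a term. No member departed from additive mixing beyond the limits of the test, where 3.00% of all genes did.

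The plot of levels by composition gives all 14 values of each gene.

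**Figure D1:**
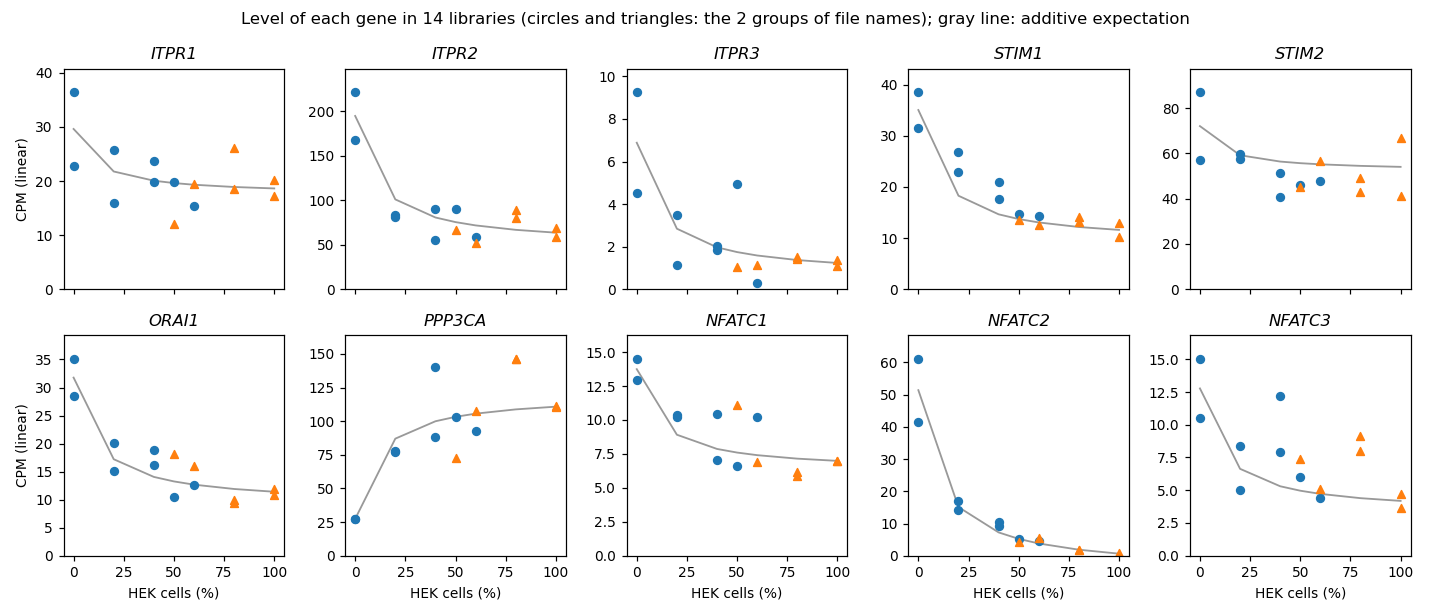
Level of each of the 10 genes in CPM (linear axis) against the percentage of HEK cells, 1 point per library; circles and triangles are the 2 groups of file names, and the gray line joins the level expected if RNA adds. NFATC2 drops from 61.1 and 41.6 CPM without HEK cells to 0.952 and 0.330 CPM in pure HEK cells. Its mixed libraries lie on both sides of the line. PPP3CA goes the other way, with both libraries of 80% HEK cells at 146 CPM above the line.

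The IP3 receptors are the channels through which calcium leaves the endoplasmic reticulum. ITPR2 (ENSG00000123104.11, GRCh38 chromosome 12, 26335352 to 26833194, minus strand) measured 58.5 and 68.4 CPM in the pure HEK libraries and 221 and 168 CPM in the pure Jurkat libraries. The groups did not overlap, and ITPR2 was lower in HEK cells with a log2 difference of -1.84 (SE 0.24, edgeR quasi-likelihood test, adjusted p = 0.00431). ITPR3 (ENSG00000096433.10, chromosome 6, 33620365 to 33696574, plus strand) measured 1.08 and 1.38 CPM in HEK and 9.26 and 4.51 CPM in Jurkat libraries. Its log2 difference was -2.65 (SE 0.47, edgeR adjusted p = 0.0102), and it was not called without the first pure HEK library (adjusted p = 0.0599). Its exons share positions with UQCC2 on the opposite strand, and its estimated count was fractional in all 14 libraries, but whether the overlap bears on its level was not tested. ITPR1 (ENSG00000150995.18, chromosome 3, 4493345 to 4847506, plus strand) measured 20.1 and 17.2 CPM in HEK and 22.8 and 36.4 CPM in Jurkat libraries. The values did not overlap, but the log2 difference of -0.90 (SE 0.30) did not pass the test (edgeR adjusted p = 0.0614), and of the 4 fits that left out 1 pure library it was called only in the one without the first pure Jurkat library (-1.21, adjusted p = 0.0225).

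STIM1 and STIM2 sit in the membrane of the store, where their luminal domains bind calcium, and STIM2 answers to smaller drops in store calcium than STIM1 does. STIM1 (ENSG00000167323.11, chromosome 11, 3854527 to 4093210, plus strand) was at 13.0 and 10.2 CPM in the pure HEK libraries and at 31.6 and 38.5 CPM in the pure Jurkat libraries, with no overlap. The log2 difference was -1.83 (SE 0.25, edgeR adjusted p = 0.00501). STIM2 (ENSG00000109689.15, chromosome 4, 26857601 to 27025381, plus strand) was at 66.9 and 41.2 CPM in HEK and 87.1 and 57.1 CPM in Jurkat libraries, and these values overlapped. Its log2 difference of -0.64 (SE 0.34) did not pass the test (edgeR adjusted p = 0.183). The sensors thus had different results in the same libraries, but the difference between their differences was not tested.

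ORAI1 forms the pore of the calcium release-activated channel. ORAI1 (ENSG00000276045.3, chromosome 12, 121626509 to 121643218, plus strand) measured 11.9 and 10.9 CPM in HEK and 28.4 and 35.1 CPM in Jurkat libraries. The Jurkat libraries were both higher, and the log2 difference was -1.71 (SE 0.23, edgeR adjusted p = 0.00484). Its estimated counts were whole in only 1 of 14 libraries, although the annotation used here places no other gene over it.

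PPP3CA, the alpha catalytic subunit of calcineurin, is the phosphatase that cyclosporin and tacrolimus block through their binding proteins. PPP3CA (ENSG00000138814.16, chromosome 4, 101023409 to 101348278, minus strand) was at 110 and 111 CPM in the pure HEK libraries and at 27.5 and 27.2 CPM in the pure Jurkat libraries. The libraries of each pair lay close together and far from those of the other line, and the log2 difference was 1.79 (SE 0.20, edgeR adjusted p = 0.00264). It was the 1 member that was higher in HEK cells, and all 4 fits that left out 1 pure library called it.

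The NFAT factors bind DNA as the targets of calcineurin. NFATC2 (ENSG00000101096.19, chromosome 20, 51386957 to 51562831, minus strand), also known as NFAT1 and the main NFAT of resting T cells, had 9 and 5 counts in the pure HEK libraries (0.952 and 0.330 CPM) and 186 and 379 counts in the pure Jurkat libraries (41.6 and 61.1 CPM). The mean CPM was 80.1-fold higher in Jurkat cells, and the log2 difference was -6.64 (SE 0.52, edgeR adjusted p = 0.00106). Jurkat markers were themselves not at 0 in the pure HEK libraries, as given above, although most of that summed level was BCL11B (mean 11.7 CPM). The part that stray Jurkat RNA has in the 9 and 5 counts was not tested. Its estimated counts were whole numbers in all 14 libraries. NFATC1 (ENSG00000131196.17, chromosome 18, 79395856 to 79529325, plus strand), whose short isoform is induced by NFAT itself in activated T cells, was at 6.98 and 6.99 CPM in HEK and 13.0 and 14.5 CPM in Jurkat libraries. The log2 difference was -1.20 (SE 0.23, edgeR adjusted p = 0.0119), and NFATC1 was not called when either pure HEK library was left out (adjusted p = 0.0926 and 0.0897). NFATC3 (ENSG00000072736.18, chromosome 16, 68084751 to 68229259, plus strand), known for its high level in the thymus, was at 3.66 and 4.72 CPM in HEK and 10.5 and 15.0 CPM in Jurkat libraries. The log2 difference was -1.81 (SE 0.31, edgeR adjusted p = 0.00896), it was not called without the first pure HEK library (adjusted p = 0.0601), and its counts were fractional in all 14 libraries beside 4 annotated genes that overlap its exons.

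The promoters of NFATC2 are shown because NFATC2 has the widest difference of the set. RefSeq (GRCh38.p14) gives windows of 300 bases, from 250 before to 50 after a start, for 7 of the 10 members; ORAI1, ITPR2 and PPP3CA were not matched. NFATC2 has an outer start at chr20:51562790-51563089 and an inner start at chr20:51542670-51542969, both on the minus strand. Capitals mark GGAAA, the core that NFAT factors bind, or its reverse complement TTTCC.
NFATC2 outer start: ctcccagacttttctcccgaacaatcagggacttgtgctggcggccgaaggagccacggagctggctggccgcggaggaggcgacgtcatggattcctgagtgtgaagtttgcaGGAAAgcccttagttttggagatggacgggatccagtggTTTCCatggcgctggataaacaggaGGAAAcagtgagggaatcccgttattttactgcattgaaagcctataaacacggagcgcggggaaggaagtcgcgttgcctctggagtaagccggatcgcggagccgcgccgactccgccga
NFATC2 inner start: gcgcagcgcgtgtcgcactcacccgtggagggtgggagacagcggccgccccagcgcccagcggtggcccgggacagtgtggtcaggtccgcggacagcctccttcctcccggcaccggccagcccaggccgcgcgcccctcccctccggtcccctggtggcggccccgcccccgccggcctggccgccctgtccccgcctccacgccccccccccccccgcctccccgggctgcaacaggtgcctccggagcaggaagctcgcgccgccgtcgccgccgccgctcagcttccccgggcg
The outer window holds 3 GGAAA cores and 1 TATAAA with 57.7% G and C, and the inner window holds no GGAAA core, 3 GGGCGG and 80.7% G and C. Searched on both strands, GGAAA stands in 61.2%, TATAAA in 11.5% and GGGCGG in 45.0% of the 35116 RefSeq windows of this length, and GGGCGG and GGAAA may share their GG. The gene tables do not say which start the reads came from.

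In all, 8 of the 10 members were called between the pure lines (edgeR, Benjamini-Hochberg adjusted p under 0.05), 1 higher in HEK and 7 lower, with a median log2 difference of -1.76. Over all 15794 genes tested 43.2% were called, 24.2% higher in HEK and 19.0% lower, with a median of 0.07. Without an adjustment 9 of the 10 had p under 0.05. The members' median log2 difference was -1.66 without the first pure HEK library and -1.63 without the second. It was -1.75 without the first pure Jurkat library and -1.52 without the second. Over these fits the median of all genes ran from 0.04 to 0.17. Not every member kept its call in them, as given above.

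The scale decided most of these directions. The ratio of gene to ERCC counts was 10.0 times as high in the pure HEK libraries, and with ERCC totals as the scale the median log2 difference over all genes moved from 0.07 to 3.61. On that scale 8 members were higher in HEK cells and NFATC2 was lower, where 92.5% of all genes tested were called higher and 3.22% lower. NFATC2 measured 0.140 and 0.0321 counts per 1000 ERCC counts in HEK and 0.503 and 0.753 in Jurkat libraries, and its log2 difference was -3.08 (SE 0.69, edgeR adjusted p = 1.04e-05). PPP3CA measured 16.3 and 10.8 counts per 1000 ERCC counts in HEK and 0.333 and 0.336 in Jurkat libraries, and its log2 difference was 5.34 (SE 0.60, edgeR adjusted p = 8.86e-18). NFATC1, NFATC3, STIM1, ORAI1 and ITPR2, lower in HEK cells by CPM, had log2 differences of 1.68 to 2.33 and were called higher; ITPR3 had 0.80 and was not called (edgeR adjusted p = 0.237). The members' median was 1.80 against 3.61 for all genes, so that apart from PPP3CA every member lay below the median gene on this scale too. Each sample was made up to 1000000 cells, and the ERCC RNAs went into the mRNA after its extraction.

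**Figure D2:**
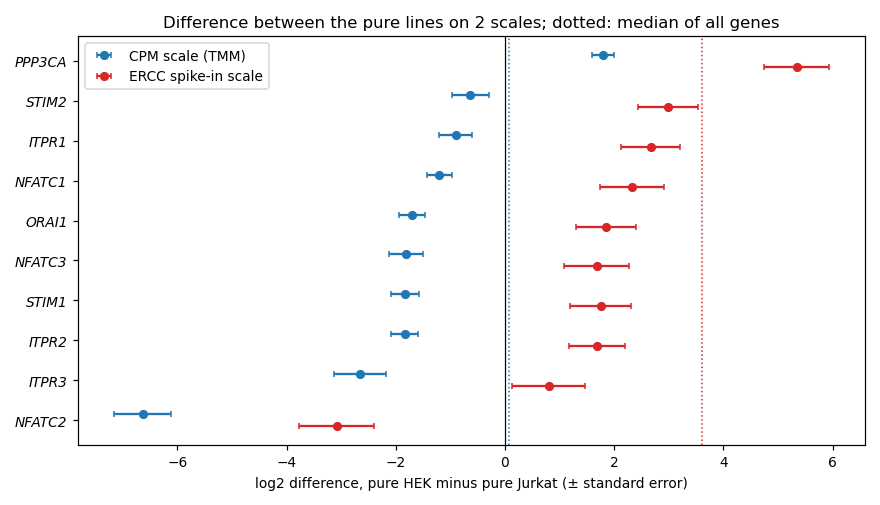
Log2 difference of each member, pure HEK minus pure Jurkat, with its standard error, by CPM (blue) and against ERCC totals (red); dotted lines are the medians of all 15794 genes, 0.07 and 3.61. PPP3CA lies to the right of both dotted lines and NFATC2 lies below 0 on both scales, at -6.64 and -3.08.

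Levels of different genes are set side by side here in the deposited TPM. TPM divides by transcript length and scales each library to the same total. The paper primed its cDNA with oligo-dT, and whether counts rise with length in these libraries was not tested. The order differs by CPM. By mean CPM, PPP3CA (111) and ITPR2 (63.5) stood above STIM2 (54.0) in HEK cells, though ITPR2 and STIM2 overlapped. In Jurkat cells NFATC2 (51.4) came next after ITPR2 (195) and STIM2 (72.1). In pure HEK cells STIM2 led at 41.6 ± 6.0 TPM (SD, n = 2), followed by PPP3CA at 33.8 ± 1.2 TPM and ITPR2 at 17.6 ± 2.1 TPM. ITPR1 (7.05 TPM), ORAI1 (6.06 TPM) and STIM1 (5.81 TPM) came next, and each overlapped its neighbour in this order. NFATC1 (2.11 TPM) and NFATC3 (1.24 TPM) stood apart from each other, while ITPR3 (0.13 TPM) and NFATC2 (0.085 TPM) overlapped at the bottom. In pure Jurkat cells ITPR2 led at 76.0 ± 43.0 TPM and overlapped STIM2 at 52.4 ± 12.3 TPM. STIM1 followed at 21.9 TPM, ORAI1 (14.4 TPM) overlapped ITPR1 (12.6 TPM), and PPP3CA (7.80 TPM) overlapped NFATC2 (6.61 TPM). NFATC1 (3.67 TPM), NFATC3 (3.25 TPM) and ITPR3 (0.70 TPM) were lowest and did not overlap.

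The make-up of the families can be read from the same TPM values. NFATC2 was 2.51% of the summed TPM of NFATC1, NFATC2 and NFATC3 in pure HEK cells (1.14 and 3.87%) and 48.5% in pure Jurkat cells (45.2 and 51.8%). NFATC1 led the family at 61.5% in HEK cells and stood at 27.3% in Jurkat cells. STIM1 was 12.3% of the STIM pair in HEK cells (11.8 and 12.8%) and 29.9% in Jurkat cells (26.9 and 32.8%), and STIM2 led in both. ITPR2 led the IP3 receptors in both lines, at 71.7% in HEK cells and 82.4% in Jurkat cells, and its library values overlapped between the lines. The mean transcript length behind a TPM was 7437 bases for NFATC2 in every library. Its median was 3280 bases for NFATC1 and 3950 for NFATC3, so division by length lowers the NFATC2 share. Without that division, mean CPM was 51.4 for NFATC2, 13.7 for NFATC1 and 12.8 for NFATC3 in Jurkat cells. In HEK cells these means were 0.641, 6.99 and 4.19 CPM. The length ran from 937 to 3511 bases for STIM1 and from 2042 to 7900 bases for ITPR2, and shares that include STIM1 or ITPR2 move with it.

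**Figure D3:**
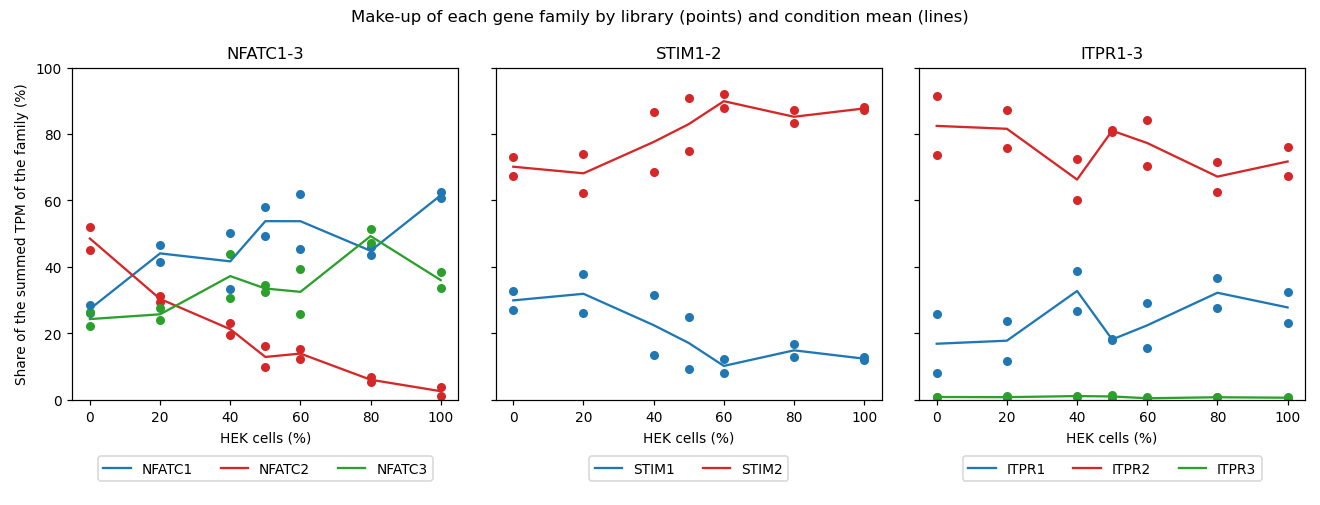
Share (%) of each gene in the summed TPM of its family against the percentage of HEK cells, with points for libraries and lines for the mean of each composition. The NFATC2 line drops from 48.5% to 2.51%, while STIM2 and ITPR2 lead their families at every composition.

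The mixtures gave a second measurement in 10 libraries that had no part in the comparison of pure lines. From the lowest to the highest HEK percentage, NFATC2 measured 14.3 and 17.0 CPM in the libraries of 20% HEK cells, 10.4 and 9.20 CPM in those of 40%, 5.05 and 4.27 CPM in those of 50%, 5.58 and 4.71 CPM in those of 60%, and 1.85 and 1.70 CPM in those of 80%. Every library at 20 and 40% thus lay above every library from 50% upward. The log2 slope over 100 percentage points of HEK cells was -5.20 (SE 0.51, edgeR adjusted p = 4.27e-05), and all 10 fits that left out 1 library called it.

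STIM1 measured 26.9 and 22.8 CPM in the libraries of 20% HEK cells, 21.0 and 17.7 CPM in those of 40%, 14.7 and 13.5 CPM in those of 50%, 12.6 and 14.2 CPM in those of 60%, and 14.1 and 13.1 CPM in those of 80%. It was high at 20 and 40% and level from 50% on, and its slope was -1.63 (SE 0.43, edgeR adjusted p = 0.0463). ORAI1 measured 15.2 and 20.1 CPM in the libraries of 20%, 16.1 and 18.8 CPM in those of 40%, 10.5 and 18.1 CPM in those of 50%, 16.0 and 12.7 CPM in those of 60%, and 10.0 and 9.33 CPM in those of 80%. The libraries with 80% HEK cells were the lowest, and the slope was -1.51 (SE 0.38, edgeR adjusted p = 0.0367). These were the 3 of 10 members called, all lower with more HEK cells, against 5.47% of the 18516 genes tested, 4.82% lower and 0.643% higher; without an adjustment 4 of the 10 had p under 0.05.

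Neither weaker call held in every fit that left out 1 mixed library. The slopes in these fits stayed negative, from -2.03 to -1.33 for STIM1 and from -1.82 to -1.34 for ORAI1. STIM1 was called only without the second library of 50% HEK cells or the first of 80% (adjusted p = 0.0289 and 0.0349) and was not called in the other 8 such fits, where the adjusted p ran from 0.0522 to 0.275. ORAI1 was not called without the second library of 40%, the second of 60%, either library of 80% or the second of 20% HEK cells (adjusted p = 0.0564, 0.0802, 0.130, 0.199 and 0.182). The groups of file names also run along the mixtures, since the group of the pure HEK libraries holds both libraries of 80% HEK cells and 1 each of 60 and 50%. With that group as a term only NFATC2 was called (slope -4.58, SE 0.72, edgeR adjusted p = 0.00446), while STIM1 had -1.16 (adjusted p = 0.451) and ORAI1 -1.85 (adjusted p = 0.120). Within the 6 mixed libraries of the other group, NFATC2 had a slope of -4.63 (edgeR adjusted p = 0.0384), STIM1 -2.22 (adjusted p = 0.279) and ORAI1 -1.55 (adjusted p = 0.565). Within the 4 of the group with the pure HEK libraries, NFATC2 had -4.44 (edgeR adjusted p = 0.142), STIM1 0.84 (adjusted p = 0.494) and ORAI1 -2.45 (adjusted p = 0.114).

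The other members gave no call. NFATC1 had 10.4 and 10.2 CPM with 20% HEK cells, 5.87 and 6.13 CPM with 80%, and 6.61 to 11.1 CPM between, and its slope of -1.25 (SE 0.41) had an edgeR adjusted p of 0.110. PPP3CA measured 77.4 and 78.2 CPM in the libraries of 20% HEK cells, and 146 CPM in both of 80%, but the first library of 40% reached 140 and the second of 50% only 72.6. Its slope was 1.19 (SE 0.56, edgeR adjusted p = 0.277). STIM2 had a slope of -0.52 (SE 0.38) and ITPR3 one of -1.61 (SE 1.48), and NFATC3, ITPR1 and ITPR2 lay between -0.16 and -0.02 with standard errors of 0.57 to 0.72.

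**Figure D4:**
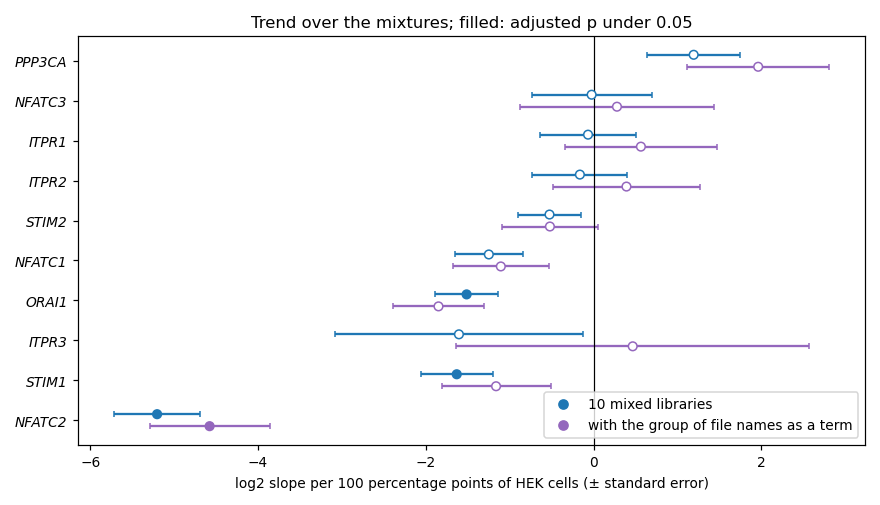
Log2 slope of each member over 100 percentage points of HEK cells in the 10 mixed libraries, with its standard error, without (blue) and with (purple) the group of file names as a term; filled points passed the adjusted p of 0.05. Only NFATC2 is filled in both fits, at -5.20 and -4.58.

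Additive mixing asks whether a mixture holds what its parts would give. With 10.0 times as many gene counts per ERCC count in HEK cells, HEK RNA would be 97.6% of a mixture with 80% HEK cells and 71.5% of one with 20%. The ratio rests on 147 and 97.3 gene counts per ERCC count for HEK replicates, beside 12.1 and 12.3 for Jurkat replicates. The paper derives a smaller multiple from the same spike-ins, and expected levels at that multiple were not tested. For NFATC2 the ratio of 10.0 gives 15.1 CPM with 20% HEK cells and 1.87 CPM with 80%. The mean measured levels were 15.7 and 1.78 CPM. Both libraries of 40% HEK cells (10.4 and 9.20 CPM against 7.24) and of 60% (5.58 and 4.71 CPM against 3.80) lay above. Those of 50% lay below (5.05 and 4.27 CPM against 5.24). The test of observed against expected takes the expected level as fixed. Its SE and p therefore leave out the spread of the pure libraries, for every gene tested this way. Over the 10 mixed libraries the log2 ratio of observed to expected for NFATC2 was 0.16 (SE 0.10, edgeR adjusted p = 0.282), with 5 of 10 libraries above. With RNA shares fitted to each library by least squares, the ratio was 1.38 (SE 0.59) and was not called either (edgeR adjusted p = 0.136). The fitted shares ran from 65.5 to 101.8%. They passed the whole of the RNA in the second library of 80% HEK cells (101.8%) and the first of 60% (100.8%). None of the 10 members was called at an edgeR adjusted p under 0.05 and a log2 ratio beyond 1, against 3.00% of 19129 genes, 1.94% higher and 1.05% lower; 3 had an unadjusted p under 0.05, and the members' median ratio was 0.07 beside 0.02 for all genes.

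NFATC3 came nearest. Its mixed libraries lay 1.44-fold above the expected level (log2 ratio 0.53, SE 0.14, edgeR adjusted p = 0.0176), in 8 of 10 libraries. It measured 7.96 and 9.18 CPM at 80% HEK cells, where 4.40 was expected, and 12.2 and 7.92 CPM at 40%, where 5.30 was expected, but 5.05 and 8.38 at 20%, where 6.63 was expected. Without 1 library at a time the ratio ran from 0.35 to 0.71 and the adjusted p from 0.00131 to 0.0727. STIM1 also lay above in 8 of 10 libraries (log2 ratio 0.23, SE 0.08, edgeR adjusted p = 0.0581), with 26.9 and 22.8 CPM at 20% HEK cells, where 18.3 was expected, and 21.0 and 17.7 CPM at 40%, where 14.6 was expected. STIM2 lay below in 8 of 10 libraries, with 2 above (-0.18, SE 0.08, edgeR adjusted p = 0.125). PPP3CA was above its expected 109 CPM in both libraries of 80% HEK cells (146 CPM) and in the first library of 40% (140 against 100.0 CPM), but over all 10 its ratio was 0.05 (SE 0.10, edgeR adjusted p = 0.764).

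A list of 88 other genes of the pathway, set out by role, put the members in context. Of these, 65 could be tested between the pure lines and 25 were called, 10 higher and 15 lower in HEK cells, where 43.2% of all 15794 genes tested were called, so that the list as a whole does not stand out. The median log2 difference of the 65 tested was -0.08. The share of members called was 8 of 10. Both lists share the same libraries, and no test set one list against the other. Leaving out 1 pure library at a time, the median of the pathway genes tested ran from -0.10 to 0.09. The genes tested changed between these fits, from 64 to 70 of the 88. With ERCC totals as the scale 64 of the 65 tested were called, 61 of them higher in HEK cells. Of all 15794 genes 15125 were called on that scale, 14616 of them higher. The values that follow are means of 2 libraries on the CPM scale.

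Upstream of the IP3 receptors, 3 of 11 tested genes were called. ITPKB, a kinase that turns IP3 into IP4, was at 2.33 CPM in HEK and 8.88 CPM in Jurkat cells (log2 difference -2.17, edgeR adjusted p = 0.00556). ERLIN2, part of the complex that marks activated IP3 receptors for degradation, was at 45.5 CPM in HEK and 12.3 CPM in Jurkat cells (1.67, adjusted p = 0.00568). RYR2, a ryanodine receptor best known from heart muscle, had 28 to 57 counts in HEK libraries and 0 in both Jurkat libraries, at least 5.82-fold higher in HEK cells when each Jurkat library is set at 3 counts.

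Among partners of STIM and ORAI, 6 of 14 tested genes were called, 3 in each direction. ORAI2, a second pore subunit, was at 50.1 CPM in HEK and 158.9 CPM in Jurkat cells (-1.89, edgeR adjusted p = 0.00349), the direction of ORAI1. CRACR2A, which supports ORAI and STIM complexes in T cells, was at 3.68 and 7.89 CPM (-1.36, adjusted p = 0.0355). In the other direction, JPH3, a junctophilin that ties the endoplasmic reticulum to the plasma membrane, had 86 to 172 counts in HEK and 2 to 4 in Jurkat libraries. TRPC1, a cation channel, had 72 to 136 counts in HEK libraries against 0 and 1.

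The pumps that clear calcium differed by isoform, with 4 of 6 tested genes called. ATP2A3, the SERCA pump of blood cells, was at 1.76 CPM in HEK and 49.5 CPM in Jurkat cells, 28.2-fold higher in Jurkat (-5.03, edgeR adjusted p = 0.000640). ATP2A2, the SERCA pump found in most cells, was at 62.2 CPM in HEK and 33.0 CPM in Jurkat cells (0.69, adjusted p = 0.0451). Of the plasma membrane pumps, ATP2B4 was at 48.4 CPM in HEK and 275 CPM in Jurkat cells (-2.73, adjusted p = 0.00171) and ATP2B1 at 283 and 75.2 CPM (1.69, adjusted p = 0.00370).

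In mitochondria, 1 of 6 genes was called: MCUB, the subunit that dampens the uniporter, was at 36.8 CPM in HEK and 126 CPM in Jurkat cells, although the SD of the Jurkat pair was 81.8 (edgeR adjusted p = 0.0272). Of calmodulin and the other calcineurin subunits 1 of 6 tested was called, PPP3CC, the gamma catalytic subunit, at 4.00 CPM in HEK and 7.69 CPM in Jurkat cells (-1.17, adjusted p = 0.0244), the opposite direction to PPP3CA. Of the inhibitors and anchors of calcineurin 2 of 7 tested were called, both lower in HEK cells. RCAN3 had 31.2 and 48.9 CPM (-0.88, edgeR adjusted p = 0.0370) and CHP1 17.2 and 23.7 CPM (-0.69, adjusted p = 0.0475).

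Among other NFAT genes and the kinases that send NFAT back to the cytoplasm, 6 of 13 tested were called, 3 in each direction. NFATC4, the remaining calcium-regulated NFAT, was at 8.88 CPM in HEK and 2.39 CPM in Jurkat cells (1.61, edgeR adjusted p = 0.0242), unlike NFATC1, NFATC2 and NFATC3. DYRK1A was at 42.3 and 148 CPM (-2.02, adjusted p = 0.0118) and CSNK1A1 at 192 and 465 CPM (-1.50, adjusted p = 0.00518), whereas CSNK1D was at 91.7 and 31.4 CPM (1.32, adjusted p = 0.00612).

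Of 16 genes that NFAT is known to switch on in T cells, only 2 could be tested, both higher in Jurkat cells. TOX, which is also a factor of T cell development and so no sign of NFAT activity by itself, was at 0.861 CPM in HEK and 197 CPM in Jurkat cells (edgeR adjusted p = 0.00137). CD40LG, the ligand that helper T cells show to B cells, had 0 counts in both HEK and 44 to 88 in the Jurkat libraries, at least 46.6-fold higher in Jurkat cells with each HEK library set at 3 counts (adjusted p = 0.00175). IL2, IL2RA, IL4, IFNG, FASLG, PDCD1, CTLA4, IL3 and CSF2 lay at or under 3 counts in all 14 libraries, and no level could be told from 0 at this depth. Of the other untested targets, 4 lay at or under 3 counts in every pure library but not in every mixed library. The remaining target passed 3 counts in a pure library but was too low to test. In pure Jurkat libraries 3 counts are 0.671 and 0.484 CPM.

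**Figure D5:**
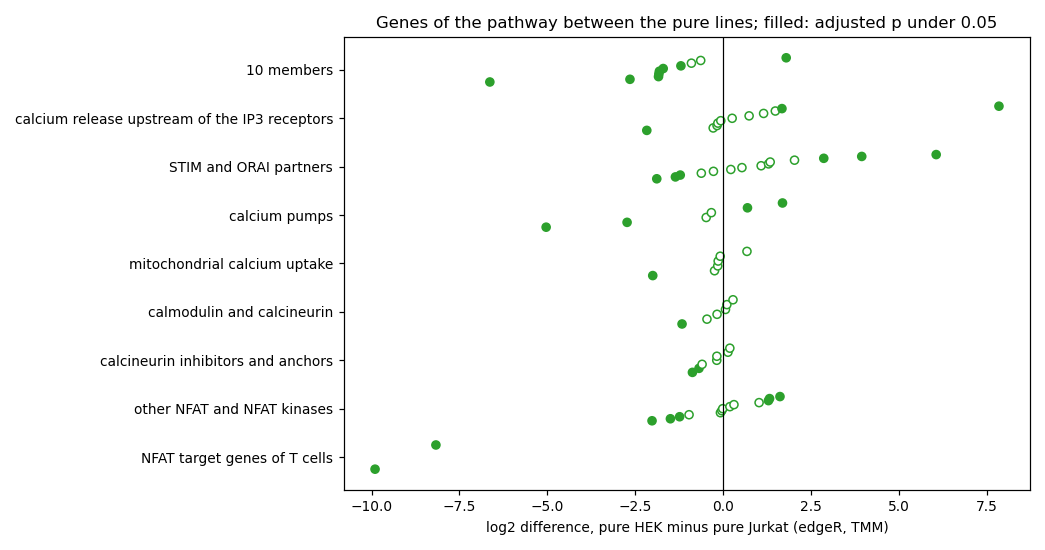
Log2 difference, pure HEK minus pure Jurkat by CPM, of the 10 members and of the 65 tested pathway genes by role, 1 point per gene; filled points passed the adjusted p of 0.05. The members lie mostly left of 0, around a median of -1.76, and the other roles spread to both sides except for the NFAT targets of T cells.

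Over the 14 libraries, the genes whose log2(CPM + 1) ran closest to that of NFATC2 were GAS7 (Pearson r = 0.989), BCL11B (0.989) and NRROS (0.986), of 11467 genes with a mean of at least 5 CPM. For PPP3CA they were PLOD2, SMAD9 and CACNB4, each with r = 0.984. These r are descriptions over libraries that share the same mixing design.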

How the data were processed

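Polyadenylated RNA of HEK-293T and Jurkat cells and their mixtures was sequenced as 14 libraries (2 at each of 7 compositions). Per the labels, the authors' processing used STAR 2.6.1b, RSEM 1.3.1 and GRCh38; the annotation release is not given in the sources used here. The deposited tables hold RSEM expected counts, the authors' TPM and a mean transcript length per gene; deposited FPKM columns and the table of the whole series were not used. Identifiers were matched to GENCODE symbols without their versions, and the 641 unmatched genes held at most 0.29% of a library's counts.

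Expected counts were rounded to whole numbers and tested with edgeR 4.0.16 in R 4.3.3 (TMM factors, filterByExpr, quasi-likelihood F test, Benjamini-Hochberg over all genes, threshold 0.05); all 10 members passed the filter in each comparison. The ERCC RNAs took 0.674 to 7.65% of counts and were kept out of CPM. Pure libraries were compared 2 against 2. The trend used HEK percentage as a number over the 10 mixed libraries. The additive level was the average of both pure levels weighted by expected RNA shares, with a lowest expected level of 0.2 CPM. Observed against expected was tested through an offset that carries no error of the pure libraries. Since glmQLFTest takes no model without a reduced design, the same F was computed from the deviances. The fits were tested on simulated data. DESeq2 1.42.0 and the other settings in the closing section were alternatives.

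The members and gene lists were chosen with earlier results of these data known. All members are named; of the other pathway genes, those with a mean of at least 1 CPM that passed the test and had the 2 widest log2 differences in each direction within a role, or that lay at or under 3 counts in every library; and the 3 genes most correlated with the member of widest difference in each direction. Count floors cover counting error only. Replicate numbers follow the order of deposit and pair no libraries.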

Additional observations from a re-analysis of the deposited data

How the results depend on the processing

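The count of 8 members called between the pure lines stayed at 8 with RLE size factors, DESeq2, no filter, all 14 libraries in the fit or unrounded counts, was 9 on the ERCC scale, and ran from 5 to 9 when 1 pure library was left out, where the lone library is assumed to vary like the others. The ERCC scale reversed NFATC1 (2.33), NFATC3 (1.68), STIM1 (1.75), STIM2 (2.98), ORAI1 (1.85), ITPR1 (2.67), ITPR2 (1.69) and ITPR3 (0.80). That scale also moved the median gene to 3.61. The paper reads the spike-in comparison as mRNA content per cell, and the cause of the reversals was not tested. On the ERCC scale 64 pathway genes were called instead of 25, and 13 to 23 when 1 pure library was left out on the CPM scale. For the trend, 1 member was called with the group of file names as a term, 1 in the group of 6 libraries, 0 in the group of 4 (edgeR), 1 with the libraries of a mixture summed, and 1 to 3 when 1 library was left out; the cause was not tested, though the groups and sums hold fewer libraries.

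Slopes turned sign with the file group as a term for NFATC3 (0.28), ITPR1 (0.57), ITPR2 (0.39) and ITPR3 (0.47), and within the group of 4 for NFATC3 (1.96), STIM1 (0.84), STIM2 (0.42), ITPR1 (3.11), ITPR2 (2.30) and ITPR3 (2.31). Leaving out 1 mixed library, they ran from -0.43 to 0.29 for NFATC3, from -0.59 to 0.43 for ITPR1 and from -0.50 to 0.01 for ITPR2.

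Ratios of observed to expected turned sign for ITPR1 with TMM factors (0.02), for ITPR3 with RNA shares by least squares (-0.08), in the group of 4 for ITPR2 (0.05) and ITPR3 (-0.24), and in the group of 6 for PPP3CA (-0.01). For NFATC2 the least-squares shares moved the ratio from 0.16 to 1.38 (edgeR adjusted p = 0.136). These shares were 101.8% in the second library of 80% HEK cells and 100.8% in the first of 60%. A share above the whole leaves no Jurkat RNA to expect. NFATC2 measured 1.70 and 5.58 CPM there, and the part these libraries have in the move was not tested. Leaving out 1 library, the ratios ran from -0.07 to 0.43 for NFATC2, -0.44 to 0.12 for STIM2 and -0.10 to 0.06 for ITPR1. They ran from -0.18 to 0.07 for ITPR2, -0.32 to 0.23 for ITPR3 and 0.00 to 0.10 for PPP3CA. No paired analysis was possible because the labels give the libraries no replicate numbers that compositions share. Depth limits the genes at few counts, above all in the pure Jurkat libraries.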
